A study of Mus musculus with 6 samples.

Results

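The immunity-related GTPases (IRG family) were followed in preadipocytes sorted for high or low binding of FcsFNDC4, the extracellular part of the FNDC4 protein fused to a human Fc. They were chosen by name, as Iigp1, Gm4951, BC023105, Gm12250, Gm4841, Irgm1, Irgm2 and Igtp, and a transcript cluster (a group of array probes read together) counted for a gene only when the annotation gave it that symbol alone. Of the 8 genes, 6 had such a cluster, among 19938 genes measured in this way. Irgm2 and Igtp share 1 cluster, which is given as that of both genes.

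Both groups, high-binding cells (HBC) and low-binding cells (LBC), came from 1 line of immortalized stromal vascular cells of inguinal white fat from male 129SVE mice. They were sorted and regrown until passage 20. Each group is 1 sorted population without further treatment, measured as 3 technical replicates on 1 Affymetrix mouse gene array each. The p-values therefore measure the spread between these arrays and not between independent sorts. The groups follow the sample titles, but LBC replicates 2 and 3 carry HBC in their source names. The members, the lists and the shared clusters were therefore also computed without these 2 arrays. Grouped by title, Pearson r over genes ran from 0.9961 to 0.9986 within groups and from 0.9801 to 0.9857 between them. LBC replicates 2 and 3 were thus closer to LBC replicate 1 than to any HBC array. Median intensities of the 6 arrays ran from 122 to 135 in the linear units of the deposited values. Markers of stromal and fat cells were mixed in level, as the stromal Col1a2 (5492 in HBC and 4651 in LBC) and Col1a1 (4690 and 3685) were bright and Lum (37.6 and 39.5) was dim. The adipocyte markers Fabp4 (2363 and 1774) and Pparg (1707 and 1360) were bright as well, and Adipoq read 43.0 and 40.7. In such bulk samples, a different share of cells that express a gene and a different amount of RNA per cell cannot be told apart.

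IRG proteins are interferon-inducible GTPases of cell-autonomous defence. Effector-type members carry a lysine in the first nucleotide-binding motif and are known to coat and break the vacuoles of intracellular parasites and bacteria. The regulatory members Irgm1, Irgm2 and Igtp carry a methionine there, sit on the cell's own membranes and are known to keep the effectors inactive on them. Here the 5 genes not named Irgm or Igtp are called effector-type after this naming. BC023105 is listed by RefSeq as a pseudogene, and the annotation ties its cluster to 1 mRNA record. The members resemble each other in sequence, and how far probes of one read transcripts of another was not tested.

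Promoters of the 4 members on chromosome 11 were taken from RefSeq (GRCm38.p6), as 250 bases before and 50 bases after the start site, and the other 4 were not used here. They are shown because the family is known to be interferon-inducible, and elements known from interferon responses were searched in them. Capitals mark matches to the interferon-stimulated response element, searched as GAAA, any 2 bases and GAAA, or to the gamma-activated site, searched as TTCNNNGAA, on both strands.
Irgm1 (chr11:48871371-48871670, minus strand): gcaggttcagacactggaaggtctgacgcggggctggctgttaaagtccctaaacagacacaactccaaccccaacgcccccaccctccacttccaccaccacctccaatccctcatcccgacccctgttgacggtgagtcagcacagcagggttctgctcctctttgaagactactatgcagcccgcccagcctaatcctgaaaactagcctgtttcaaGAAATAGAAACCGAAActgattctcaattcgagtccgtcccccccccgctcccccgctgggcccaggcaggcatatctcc
Irgm2 (chr11:58214727-58215026, plus strand): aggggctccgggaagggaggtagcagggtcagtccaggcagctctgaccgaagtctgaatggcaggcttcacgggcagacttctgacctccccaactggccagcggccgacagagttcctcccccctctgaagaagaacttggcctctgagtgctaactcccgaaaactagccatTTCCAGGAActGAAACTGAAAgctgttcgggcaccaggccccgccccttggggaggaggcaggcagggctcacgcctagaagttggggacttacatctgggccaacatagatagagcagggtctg
Igtp (chr11:58199306-58199605, plus strand): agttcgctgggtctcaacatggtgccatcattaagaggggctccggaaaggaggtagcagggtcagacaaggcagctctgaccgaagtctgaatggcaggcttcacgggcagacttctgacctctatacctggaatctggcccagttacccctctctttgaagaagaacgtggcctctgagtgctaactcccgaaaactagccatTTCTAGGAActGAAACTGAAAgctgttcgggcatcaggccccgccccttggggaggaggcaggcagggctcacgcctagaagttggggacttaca
Gm12250 (chr11:58183593-58183892, plus strand): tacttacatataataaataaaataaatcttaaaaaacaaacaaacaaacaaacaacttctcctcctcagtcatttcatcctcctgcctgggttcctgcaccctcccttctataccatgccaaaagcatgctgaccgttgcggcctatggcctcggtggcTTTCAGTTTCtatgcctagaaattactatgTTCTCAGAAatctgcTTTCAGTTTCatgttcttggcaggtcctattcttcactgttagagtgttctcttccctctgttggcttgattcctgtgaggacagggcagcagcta

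The response element was matched in all 4 windows and in 3.44% of 32851 promoter windows of the same length, which is a description with no test. Igtp held GAAACTGAAA from base -34 to -25 relative to the start site, and Irgm2 held the same letters from -64 to -55. Both carried a gamma-activated site just upstream, TTCTAGGAA in Igtp and TTCCAGGAA in Irgm2. The windows of these 2 genes were 68.1% identical over 270 bases when shifted by 30 bases, with a longest shared run of 61 bases, whereas no other pair exceeded 34% or a run of 11. Irgm1 held 2 overlapping matches, GAAATAGAAA and GAAACCGAAA, between -30 and -15, and no match to the gamma-activated site. In Gm12250 the element lay on the opposite strand and occurred at 2 places, as TTTCAGTTTC from -91 to -82 and from -46 to -37, with TTCTCAGAA between them. The gamma-activated site was found in 8.3% of all windows. TATAAA, the core of the TATA box, was in 13.6% of all windows and in none of these 4. These are matches of letters and not measured binding sites.

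All 6 members with a cluster of their own were called higher in HBC, where a call needs an adjusted p under 0.05 from limma and a fold above 1.5. Over all genes tested, 2.54% were called higher and 1.13% lower. In each of the 6, every HBC array lay above every LBC array, as it did for 10.1% of all genes. Log2 fold changes (HBC minus LBC, of intensity + 16) ran from 1.74 to 4.22, while the median over all genes was -0.07.

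The effector-type members showed the larger fold changes. Iigp1, also known as Irga6 and the best studied effector, read 1752, 2072 and 1479 on the 3 HBC arrays and 137, 114 and 61.1 on the LBC arrays. The means were 1768 ± 297 (SD, n = 3 arrays) and 104 ± 38.8 (SD, n = 3), which differed 17.0-fold, or by 3.94 ± 0.15 (standard error) in log2 fold change, with an adjusted p of 4.8e-19 by limma. The lowest HBC array was thus 10.8 times the highest LBC array. Gm4951, a relative of Iigp1 in the same region of chromosome 18, read 1387, 1710 and 1235 in HBC and 109, 96.7 and 58.8 in LBC, with means 16.4-fold apart and 3.83 ± 0.13 (standard error) as log2 fold change. In both genes HBC replicate 2 was the brightest and LBC replicate 3 the dimmest array. BC023105, the annotated pseudogene, read 941, 1181 and 847 in HBC and 53.4, 48.9 and 18.2 in LBC, which were 24.6-fold apart, a log2 fold change of 4.22 ± 0.16 (standard error). All its LBC arrays were dim. The remaining pair was dimmer in HBC and nearly as different between the groups. Gm4841, another gene of that region, read 380, 485 and 309.5 in HBC and 35.5, 27.1 and 17.6 in LBC, 14.7-fold apart, for a log2 fold change of 3.25 ± 0.13 (standard error). Gm12250, known as Irgb10 and encoded on chromosome 11 beside Igtp, read 596, 791 and 458 in HBC and 52.1, 45.7 and 30.6 in LBC. Its ratio of 14.4 corresponded to 3.41 ± 0.13 (standard error) in log2 fold change. Each of the 5 had an adjusted p of 9.1e-19 or lower by limma, and HBC and LBC arrays did not overlap for any of them.

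Irgm1, the regulatory member with its own cluster, was bright in both groups. It read 2564, 2811 and 2353 in HBC and 817, 803 and 666 in LBC. The means of 2576 ± 229 (SD, n = 3) and 762 ± 83.3 (SD, n = 3) differed 3.38-fold. The log2 fold change was 1.74 ± 0.094 (standard error), with an adjusted p of 2.3e-15 by limma and rank 105 of all genes. The cluster of Irgm2 and Igtp together read 1688, 1935 and 1416 in HBC and 249, 241 and 155 in LBC. Its ratio was 7.81 and its log2 fold change 2.89 ± 0.18 (standard error), with an adjusted p of 1.4e-05 by limma (over all 35556 transcript clusters, of which 1.88% were called higher). Which of the 2 genes this cluster reads cannot be told apart.

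**Figure D1:**
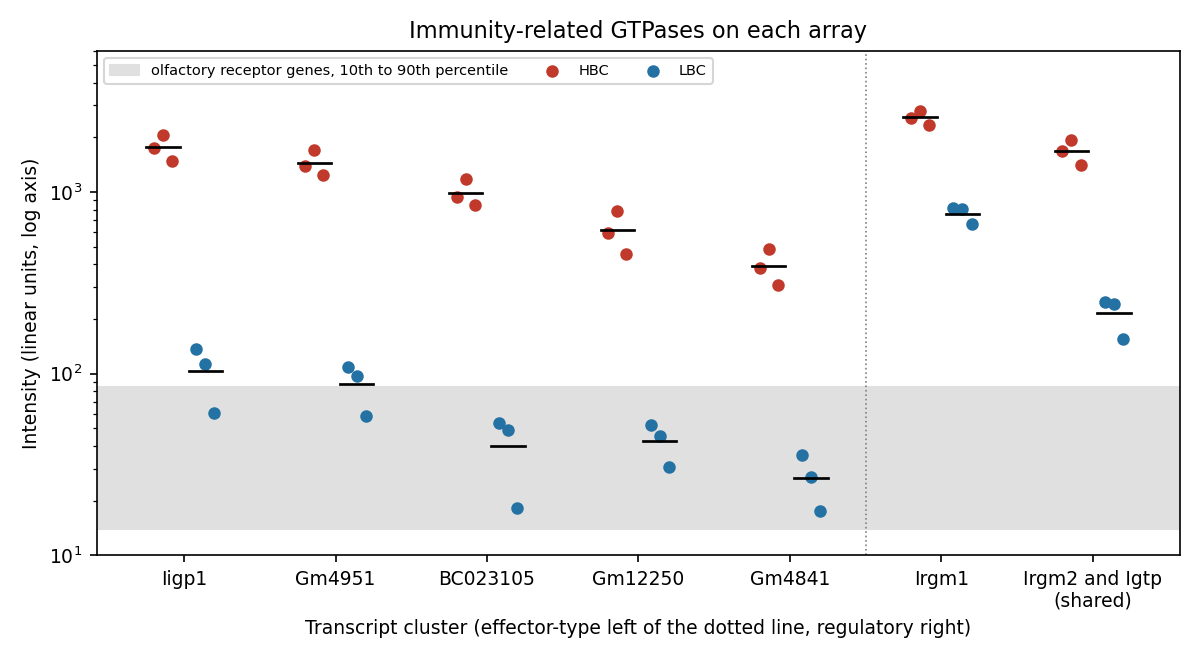
Array intensities, in linear units drawn on a log axis, of the 6 members with their own transcript cluster and of the cluster of Irgm2 and Igtp, with 3 HBC arrays in red, 3 LBC arrays in blue and each group mean as a black line. All HBC points stand above the LBC points, and the LBC means of BC023105, Gm12250 and Gm4841 fall in the grey range of olfactory receptor genes.

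Among the chosen members, the contrast between effector-type and regulatory genes lay in the size of the difference, with 1 regulatory gene measured alone. Of the other family clusters, those of Tgtp1 and Tgtp2 (3.20 and 3.13) and of Ifi47 and Olfr56 (2.53) lay above Irgm1. Gm12185 (1.15), both clusters of 9930111J21Rik1 and 9930111J21Rik2 (0.67), Irgq (-0.01) and Irgc1 (-0.17) lay below it. The cluster of Ifi47 and Olfr56 also lay below that of Irgm2 and Igtp (2.89). Ifi47, Gm12185 and the 9930111J21Rik genes were not assigned to a class here. The contrast thus describes the chosen members and not the whole family. The 5 effector-type log2 fold changes ran from 3.25 to 4.22 with a median of 3.83, against 1.74 for Irgm1. Differences within each array were taken on log2(intensity + 16), so a scaling of whole arrays cancels only in part for dim values. Their group differences equal those between the fitted log2 fold changes. Iigp1 exceeded Irgm1 by 2.20 in log2 fold change, Gm4951 by 2.09, BC023105 by 2.48, Gm12250 by 1.67 and Gm4841 by 1.52. The HBC and LBC arrays did not overlap in any of these 5 differences. The share of all genes without overlap in their difference from Irgm1 is not given here. Irgm1 itself did not overlap between the groups, so this non-overlap says little about the members. Each of the 5 differences had an exact permutation p of 0.10 (two-sided, 3 against 3 arrays). This is the smallest that 20 regroupings allow, so the design could not bring them under 0.05. The Irgm2 and Igtp cluster exceeded Irgm1 by 1.15, with the same exact permutation p of 0.10. The order between this cluster and the effector-type members depended on the added intensity. The lowest effector-type value was 3.81 against 2.98 for the shared cluster with 1 added, 3.25 against 2.89 with 16, and 2.51 against 2.72 with 50. With 50 added, Iigp1 (3.58) also exceeded BC023105 (3.54).

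Dim signal in LBC bears on the sizes for 3 of the 5 effector-type members. Olfactory receptor genes, taken as a reference for dim signal, had an LBC mean between 13.9 and 86.3 from the 10th to the 90th percentile of 1015 genes. BC023105 (40.2), Gm12250 (42.8) and Gm4841 (26.7) lay within this range in LBC and Gm4951 (88.0) just above it, while none of the 6 members did so in HBC. Set against the 90th percentile of 86.3 in place of their own LBC mean, the HBC means were 11.5 times higher for BC023105, 7.13 times for Gm12250 and 4.54 times for Gm4841. The study's methods kept genes with a mean above 100 in both groups, which leaves Iigp1 and Irgm1 of the 6 members.

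**Figure D2:**
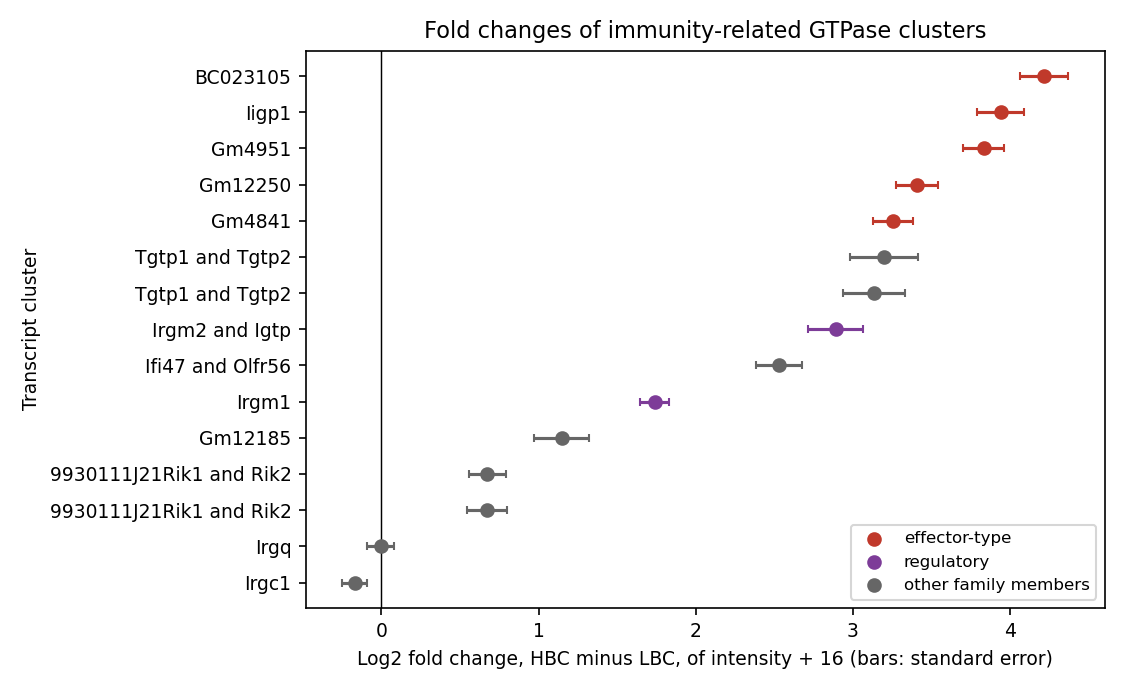
Difference in log2(intensity + 16) between HBC and LBC for each transcript cluster of the family, with bars for the standard error over 3 arrays per group, from the fit over genes for the 6 members and over all transcript clusters for the others. Effector-type members in red run from 3.25 to 4.22, the regulatory clusters in purple are at 1.74 and 2.89, and Irgq and Irgc1 lie at or below 0.

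Of 11 other genes of the family, 3 had a cluster of their own, and 1 of these was called higher. Gm12185 had a log2 fold change of 1.15 (114 in HBC and 41.5 in LBC, adjusted p = 1.2e-08 from limma), although it was not called by the methods' t-test. Irgc1, known from testis, had a log2 fold change of -0.17 (86.6 and 99.5, not called), and the divergent relative Irgq one of -0.01 (118 and 118, not called). Clusters shared by several genes are named as such. Both clusters of Tgtp1 and Tgtp2, near-identical effectors also known as Irgb6, rose, with log2 fold changes of 3.20 and 3.13. The cluster of Ifi47, named here after its value was seen, and the overlapping Olfr56 rose by 2.53. Both clusters of 9930111J21Rik1 and 9930111J21Rik2 rose by 0.67, and without HBC replicate 2 they were no longer called (0.55 and 0.54). They were also not called with LBC replicates 2 and 3 left out (0.69 and 0.70, adjusted p = 0.18 and 0.19 from limma).

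Arrays of a group deviated together across the 6 members. HBC replicate 2 was the highest and HBC replicate 3 the lowest of the HBC arrays for each of the 6 members. LBC replicate 1 was the highest and LBC replicate 3 the lowest of the LBC arrays for each of them, and the cluster of Irgm2 and Igtp showed the same pattern. Other family genes did not all follow it. Gm12185 read 46.9 in LBC replicate 2 and 42.7 in LBC replicate 1. Both clusters of 9930111J21Rik1 and 9930111J21Rik2 were lowest of the LBC arrays in replicate 1 (202 and 225). On the log2 scale the median deviation of the 6 members from their group mean was 0.26 in HBC replicate 2, -0.23 in HBC replicate 3, 0.29 in LBC replicate 1 and -0.38 in LBC replicate 3. The median over all genes stayed between -0.03 and 0.03 on every array. Irgm1 kept between 0.13 in HBC replicate 2 and -0.18 in LBC replicate 3, whereas BC023105 deviated by -0.65 in the latter. The guanylate-binding proteins, another family of interferon-inducible GTPases, had median deviations of 0.26 and -0.21 in HBC replicates 2 and 3, and of -0.29 in LBC replicate 3. Dynamin-type GTPases with other roles had a median deviation of 0.13 in LBC replicate 3. Coefficients of variation were 8.9% to 27.1% in HBC and 10.9% to 47.7% in LBC. Without LBC replicate 3, the log2 fold change of Iigp1 was 3.65 and that of BC023105 3.89, and all 6 members were still called. With both LBC replicates 2 and 3 left out, they were called as well, from 1.63 for Irgm1 to 3.84 for BC023105.

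**Figure D3:**
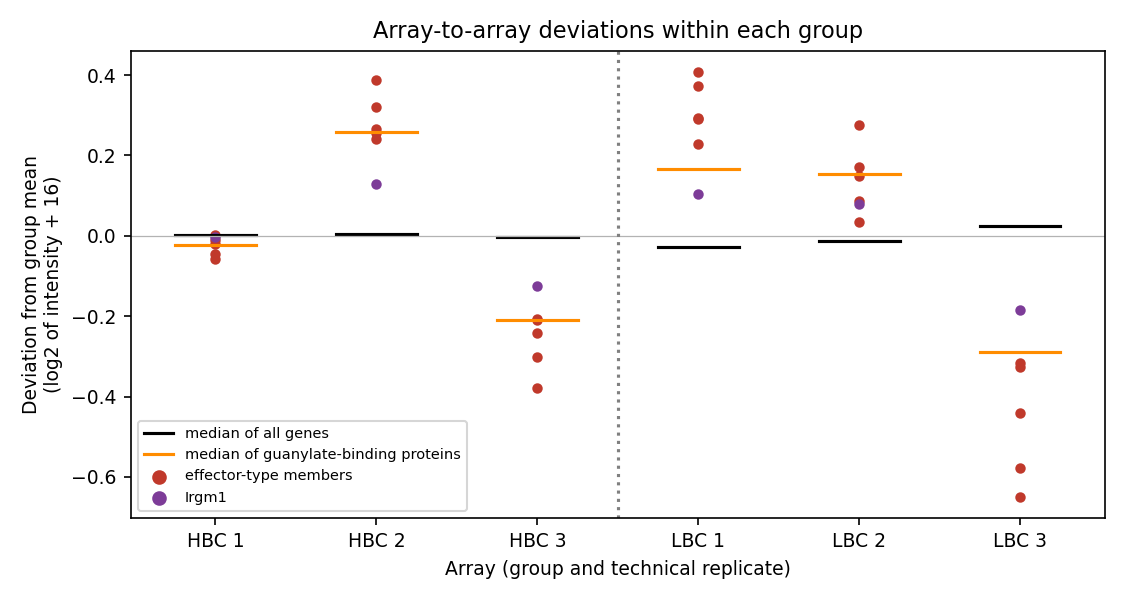
Deviation of each member from its group mean on each array, in log2 of intensity + 16, for the 5 effector-type members in red and Irgm1 in purple, with the median of all genes in black and of 8 guanylate-binding proteins in orange. The members lie together above the mean on HBC replicate 2 and LBC replicate 1 and below it on HBC replicate 3 and LBC replicate 3.

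Across the 6 arrays, the genes most like the mean log2 profile of the effector-type members were Dhx58, Oas1b, Ddx60, Trim30a and Ifi203, with Pearson r from 0.9995 to 0.9998. Those most like Irgm1 were Mx2, Ifit3b, Dhx58, Samd9l and Trim30a, at r from 0.9997 to 0.9999. The first profile had 154 genes and the second 183 genes at r above 0.99. These values describe 6 arrays in 2 groups, where any gene with a large and even difference between groups comes out close to 1.

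The members lie in 3 regions of the genome, and the genes around them were examined for the same difference. Irgm1 stands beside Gm12185, 9930111J21Rik1, Tgtp1, 9930111J21Rik2, Tgtp2 and Ifi47, and Gm12250, Igtp and Irgm2 follow each other in a second region of chromosome 11. Gm4951, Gm4841, Iigp1 and BC023105 lie together on chromosome 18. For each region, the 5 nearest measured genes on either side were taken, leaving out olfactory receptor genes. Of these 30 neighbours, none was called higher by limma, with 1 higher and 8 lower at an unadjusted p under 0.05. The methods' t-test called none in either direction. The 8 lower neighbours also had an adjusted p under 0.05 by limma, and all but Smim3 missed the fold. Over all 19938 genes, 2274 were lower and 1381 higher at an adjusted p under 0.05 without a fold threshold. Smim3, which follows BC023105, was called lower by limma (360 in HBC and 612 in LBC, log2 fold change of -0.73, adjusted p = 1.3e-06). Mrpl22, which precedes Gm12250, read 162 and 217 (log2 fold change of -0.38, not called), and Trim7, before Irgm1, read 58.3 and 64.4 (-0.11, not called).

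**Figure D4:**
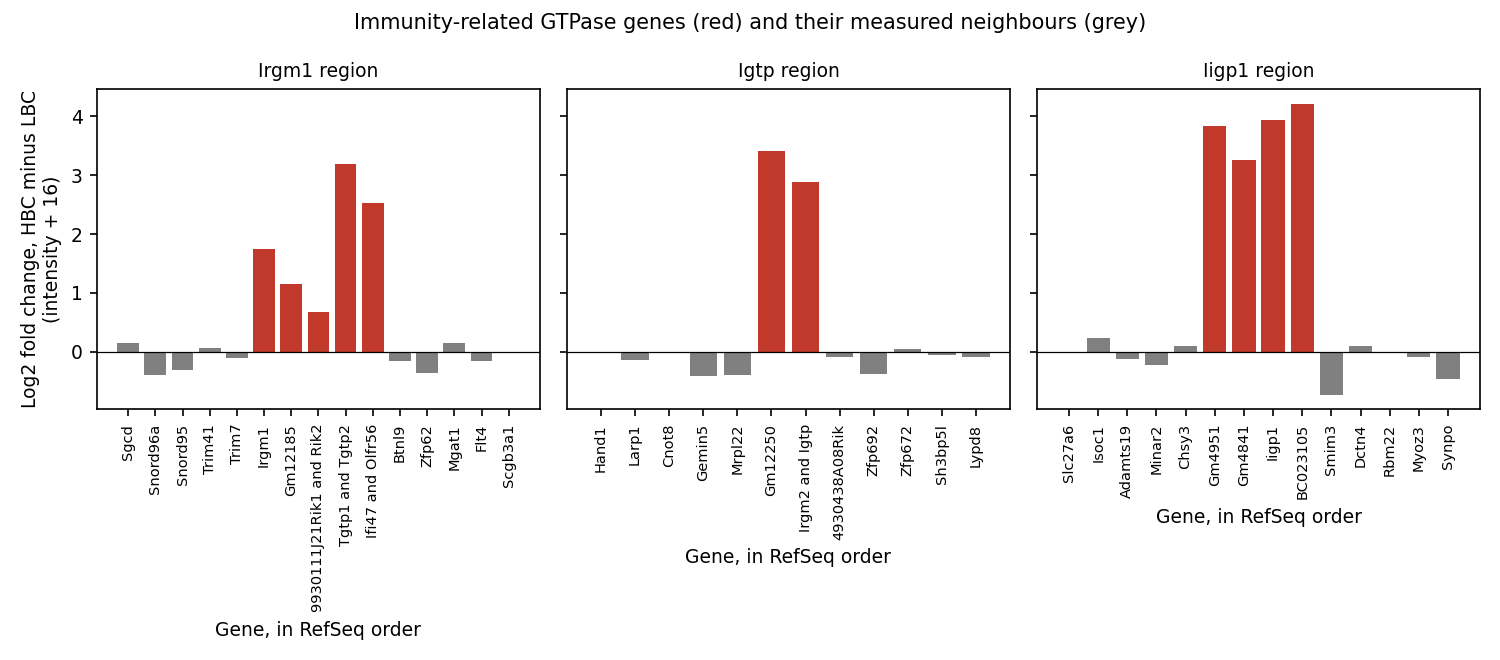
Difference in log2(intensity + 16), HBC minus LBC, of the immunity-related GTPase genes in red and of the 5 measured neighbours on each side in grey, in RefSeq order in the 3 regions, with 3 arrays per group and 1 of 2 clusters shown for Tgtp1 and Tgtp2 and for 9930111J21Rik1 and 9930111J21Rik2. Red bars run from 0.67 to 4.22 and grey bars from -0.73 to 0.23.

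Genes of related families and of the same pathways were described from lists, by counts and medians. All 8 guanylate-binding proteins measured, which load onto the same vacuoles, were called higher, and their median log2 fold change was 2.28. The methods' t-test called 6 of them, and limma called 7 with 50 added to the intensities or at a fold above 2. The largest values were those of Gbp11 (3.23), Gbp3 (3.06), Gbp7 (2.63) and Gbp4 (2.44). In LBC, 6 of the 8 means were in the range of olfactory receptor genes. Of 13 dynamin-type GTPases that act in endocytosis, mitochondrial fusion and fission and membrane recycling, 1 was called higher, Ehd4 (0.74). Ehd2 (0.47) and Dnm1l (-0.01) were not called, and the median was 0.12. Ehd2 passed the adjusted p (2.2e-04 from limma) and missed the fold.

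Interferon genes themselves were mostly dim and none of 12 was called by limma, with 0 higher and 1 lower at an unadjusted p under 0.05 and none by the methods' t-test. Of the 12, 9 were as dim as olfactory receptor genes in both groups. Ifng, whose product is the classical inducer of the family, read 62.5 in HBC and 68.1 in LBC, and Ifnb1 read 65.5 and 64.9; both are named after their values were seen. Ifnl2 read 639 and 668, and Ifna5 232 and 258. Of 16 receptor and signalling genes, 3 rose: Usp18, which restrains the type I receptor (log2 fold change of 2.37), and Stat2 (2.35) and Irf9 (1.71), which act at the interferon-stimulated response element. Ifngr2, a chain of the receptor for interferon gamma, had a log2 fold change of -0.24 and Jak1, a kinase of both receptors, one of 0.29, and neither was called. Irf1, named after its value was seen, read 861 in HBC and 653 in LBC (0.39, not called). Jak1 (adjusted p = 0.030 from limma) and Irf1 (0.0019) passed the adjusted p and missed the fold.

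ATG8 conjugation, the autophagy step known to be needed for effectors to reach vacuoles, had 11 genes measured. None was called by limma, with 2 higher and none lower at an unadjusted p under 0.05, and none by the methods' t-test. Gabarap (0.16) and Gabarapl2 (-0.12) were the brightest of these. Of 9 ubiquitin ligases, adaptors and galectins found on vacuoles, 2 rose: the galectin Lgals9 (1.92) and the ubiquitin ligase Trim21 (1.64). Sqstm1, a ubiquitin adaptor, had 0.21 and Lgals3 0.49, and neither was called. Lgals3 passed the adjusted p (1.5e-04 from limma) and missed the fold.

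Cell type markers were measured beside these lists. Of 10 preadipocyte and stromal markers, 1 was called, the matrix proteoglycan Dcn, which was lower in HBC (2933 and 5049, log2 fold change of -0.78). Pdgfrb (0.53, adjusted p = 4.8e-05 from limma), Pdgfra (0.37, 0.0029) and Col1a1 (0.35, 0.0059) were higher, passed the adjusted p and missed the fold. So did Cd34, which was lower in HBC (-0.45, 1.9e-04). None of 7 adipocyte markers was called by limma, with 3 higher and 0 lower at an unadjusted p under 0.05 and none by the methods' t-test. These 3 were Fabp4, at 0.42 in log2 fold change (limma, adjusted p = 0.0013), Pparg, at 0.33 (adjusted p = 0.0070), and Retn, at 0.58 (adjusted p = 7.9e-06), which passed the adjusted p and missed the fold on the log2(intensity + 16) scale. The part of these stromal and adipocyte markers in the difference of the GTPases was not tested. None of 30 markers of macrophages, T and NK cells, B cells and endothelium was called by limma, with 0 higher and 10 lower at an unadjusted p under 0.05 and none by the methods' t-test. Their log2 fold changes ran from -0.48 to 0.05, and 18 of the 30 were as dim as olfactory receptor genes in both groups. The lowest was that of Cd14 of macrophages, which read 107 in HBC and 155 in LBC. Cd14 passed the adjusted p (8.9e-05 from limma) and missed the fold. The summed intensity of the 10 macrophage markers was 769 to 807 in HBC and 898 to 947 in LBC. The T and NK cell markers summed to 697 to 760 and 760 to 848, the B cell markers to 239 to 265 and 247 to 274, and the endothelial markers to 400 to 462 and 410 to 498. Over all 19938 genes tested, 4998 had every HBC array below every LBC array. The median of olfactory receptor genes was likewise lower in HBC (34.8) than in LBC (37.1). The sums of dim markers therefore say little about cell content. Of the brightest markers, Cd68 of macrophages read 174 in HBC and 188 in LBC, Itgam 159 and 189, Nkg7 of T and NK cells 162 and 171, Cd79b of B cells 121 and 128 and Vwf of endothelium 81.5 and 88.3. Lyz2 of macrophages read 30.9 in HBC and 38.8 in LBC, the leukocyte marker Ptprc 59.8 and 69.9, and Cd79a of B cells 22.8 and 26.2. Of the T cell markers, Cd3e read 143 and 140 and Cd3d 40.9 and 48.2, and Ncr1 of NK cells read 23.9 and 29.4.

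**Figure D5:**
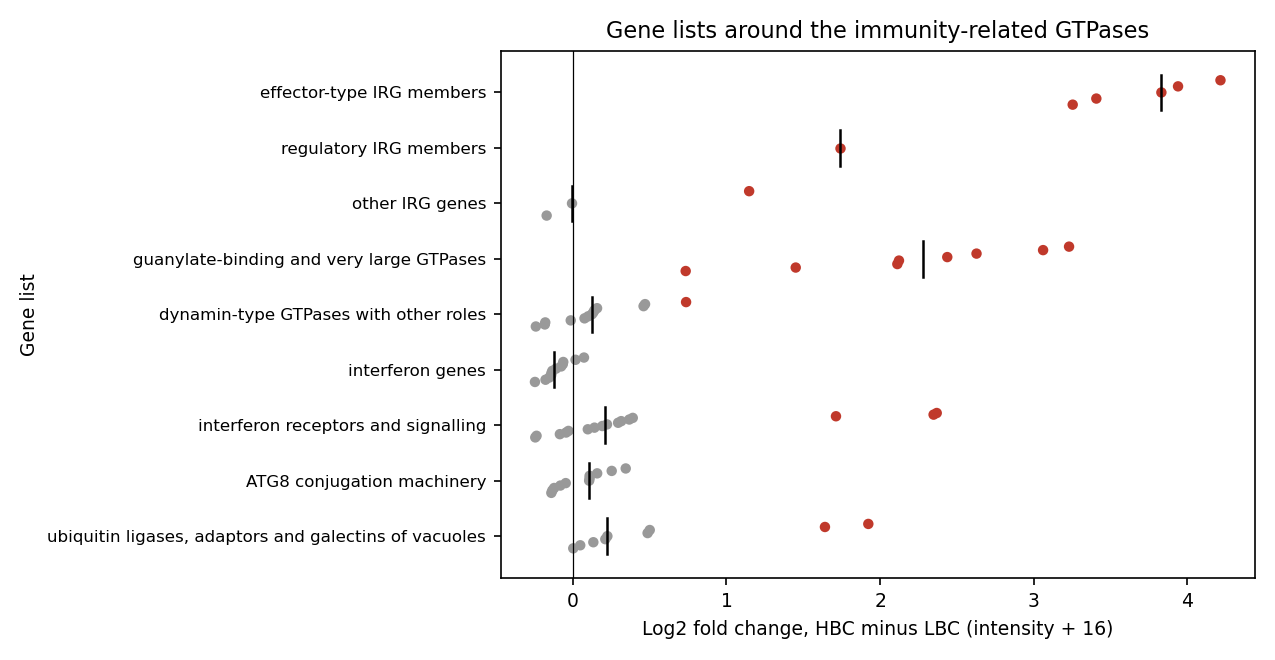
Difference in log2(intensity + 16), HBC minus LBC, of every measured gene in each list, with 3 arrays per group, genes called higher in red, others in grey and a black line at each list's median. The effector-type members have a median of 3.83, guanylate-binding proteins 2.28, interferon genes -0.12 and ATG8 conjugation genes 0.11.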

How the data were processed

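The authors deposited linear intensities. The submitters' processing notes name Affymetrix Expression Console; which version, summary and normalization were used is not given in the sources used here. Row identifiers were those of an older mouse gene array than the 2.0 ST array of the methods. Of 35556 transcript clusters, 21789 carried 1 gene symbol and 1621 several. For the 999 genes with several clusters, the one with the highest mean intensity was used; each of the 6 members had 1.

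HBC and LBC were compared on log2(intensity + 16) by lmFit and eBayes of limma 3.58.1 (R 4.3.3) over 19938 genes, adjusted by the Benjamini-Hochberg method. The scripts were tested on simulated data. The prior had 24.9 degrees of freedom against 4 residual ones, so the exponents of very small p-values carry little meaning. The number of arrays limits the precision. Clusters with several symbols were tested in a fit over all transcript clusters. Members and lists were chosen with earlier results of these data known. Named were all members, other family genes, and up to 4 called and 2 bright uncalled genes per list. Also named were the 5 genes most like each class and defining cell type markers near the level of olfactory receptor genes. Lum, Retn, Pdgfra, Pdgfrb, Cd34 and Cd14 were named after their values were seen. Neighbours and the olfactory receptor reference were added after seeing the data. Promoters and gene order are those of RefSeq (GRCm38.p6); the array annotation names no build. The methods' t-test was run on the same log2 values with Benjamini-Hochberg adjustment. Counts at an unadjusted p under 0.05 are a description, and the share over all genes at that threshold is not given here.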

Additional observations from a re-analysis of the deposited data

How the results depend on the processing

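The 6 members kept their direction and call under every alternative in which they were tested, with log2 fold changes from 3.53 to 4.15 for Iigp1, 3.44 to 4.07 for Gm4951, 3.54 to 4.76 for BC023105, 2.82 to 3.84 for Gm12250, 2.51 to 3.91 for Gm4841 and 1.63 to 1.80 for Irgm1. Their highest adjusted p-values, from 0.0099 to 0.015, came from the methods' t-test. The filter on a mean above 100 in both groups left 2 members tested, both called, no other family gene called and 2 guanylate-binding proteins. With 50 added to the intensities, the effector-type median was 3.44. Leaving out 1 array at a time, it ran from 3.61 to 3.98 and Irgm1 from 1.65 to 1.80, with 6 members called each time. By the methods' t-test, no other family gene was called. Without a fold threshold, 3 of 13 dynamin-type GTPases and 7 of 16 interferon receptor and signalling genes were called higher. So were 1 of 11 ATG8 conjugation genes and 4 of 9 ubiquitin ligases, adaptors and galectins. Over all genes, 1381 of 19938 were called higher at this setting. At a fold above 2, 0 dynamin-type GTPases were called higher. The replicate number did not pair the arrays. Deviations from the group mean correlated over genes at -0.10, -0.24 and -0.50 between HBC and LBC arrays of one number. Between those of different numbers, the correlations ran from -0.47 to 0.49. The replicate block left 6 members called and the effector-type median at 3.83. The alternatives for shared clusters were added after seeing the data, and there the cluster of Irgm2 and Igtp ran from 2.67 to 3.01; 1 cluster of 9930111J21Rik1 and 9930111J21Rik2 was not called with a floor at 16 (0.71, adjusted p = 0.057 from limma). Dim signal in LBC limits the size of the differences for BC023105, Gm12250 and Gm4841.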
